A study of Mus musculus with 18 samples.

Results

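The genes described here are the 4 DNA methyltransferase genes Dnmt1, Dnmt3a, Dnmt3b and Dnmt3l and the 3 Ten-eleven translocation genes Tet1, Tet2 and Tet3. They were taken by name from the 10965 genes of a temporal RNA-seq table, and each of the 7 was present. The table covers mouse embryonic stem cells (ESCs) of the CD1 strain. Control cells (Ctrl) carry Zeb2 alleles flanked by loxP sites (Zeb2 flox/flox), and Zeb2 KO cells lack a functional Zeb2 (Zeb2 -/-), a zinc finger transcription factor. Cells of both genotypes were sampled in 2i + LIF (d0), after 4 days as embryoid bodies (EBs) in medium with 15% serum (d4), and at d6. The last 2 days were spent in N2B27 with 500 nM retinoic acid, which drives neural differentiation (ND). There were 3 libraries in each of the 6 groups and 18 in all. The methods describe KO lines made by Cre recombinase from control ESCs of this strain, as well as lines of another background, and which lines were sequenced is not stated. The study describes its libraries of a stage as independent experiments, so the p-values below measure the spread between experiments and not between lines.

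DNA methylation is the addition of a methyl group to cytosine, mostly where a guanine follows. Dnmt3a and Dnmt3b are the enzymes that methylate new sites, Dnmt3l is a relative without catalytic activity that stimulates both, and Dnmt1 copies the pattern onto the new strand after replication. The Tet enzymes oxidise methylated cytosine, a step toward its removal. ESCs kept in 2i + LIF are known for low methylation, and the primed epiblast that follows in the embryo for high methylation and for high Dnmt3b.

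Zeb2 is known to bind DNA at CACCT and CACCTG. These letters were searched on both strands in RefSeq promoter windows of 300 bases (250 before to 50 from an annotated start, build GRCm38.p6). The first 2 windows below belong to Dnmt3b and Dnmt3l, the members that differed most between the genotypes at d4. The other two belong to Tet1 and Tet3, which differed in opposite directions. Capitals mark CACCT or CACCTG, or the same letters read on the other strand (AGGTG and CAGGTG), and every CACCTG also counts as a CACCT.
Dnmt3b, chr2:153649199-153649498, plus strand: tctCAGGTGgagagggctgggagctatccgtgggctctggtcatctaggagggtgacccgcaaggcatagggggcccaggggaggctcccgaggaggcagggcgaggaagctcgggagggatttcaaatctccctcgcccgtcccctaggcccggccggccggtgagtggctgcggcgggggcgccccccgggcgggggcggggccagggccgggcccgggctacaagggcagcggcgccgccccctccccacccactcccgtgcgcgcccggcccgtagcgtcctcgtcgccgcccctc
Dnmt3l, chr10:78042037-78042336, plus strand: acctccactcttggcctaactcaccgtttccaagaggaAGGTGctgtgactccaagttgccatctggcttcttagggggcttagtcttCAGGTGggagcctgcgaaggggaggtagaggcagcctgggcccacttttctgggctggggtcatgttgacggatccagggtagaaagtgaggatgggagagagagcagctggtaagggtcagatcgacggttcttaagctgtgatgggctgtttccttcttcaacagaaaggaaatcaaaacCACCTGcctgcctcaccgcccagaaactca
Tet1, chr10:62887275-62887574, minus strand: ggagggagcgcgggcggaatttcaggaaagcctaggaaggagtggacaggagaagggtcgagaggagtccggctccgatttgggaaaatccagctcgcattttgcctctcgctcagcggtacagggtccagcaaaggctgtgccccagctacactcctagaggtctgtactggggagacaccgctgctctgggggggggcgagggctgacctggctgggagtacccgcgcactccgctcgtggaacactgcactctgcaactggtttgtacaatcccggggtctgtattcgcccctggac
Tet3, chr6:83441629-83441928, minus strand: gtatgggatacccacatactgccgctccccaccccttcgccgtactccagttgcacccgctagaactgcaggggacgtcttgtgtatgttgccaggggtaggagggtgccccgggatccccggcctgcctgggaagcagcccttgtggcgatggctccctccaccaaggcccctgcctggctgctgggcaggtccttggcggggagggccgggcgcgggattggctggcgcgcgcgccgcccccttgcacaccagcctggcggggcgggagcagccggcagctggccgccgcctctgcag

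The Dnmt3b window held 1 CACCTG, at position -247 from the start. The Dnmt3l window held 2, at positions -162 and 21, and 1 further CACCT at -212. Of the 2 other windows of Dnmt3l, 1 held a CACCT. Dnmt1 had 3 windows, each with CACCT and 1 of them with a CACCTG. The windows of Tet1, Tet2 and Tet3 and the 3 windows of Dnmt3a held none. Of all 32851 promoter windows, 20.2% held a CACCTG and 51.9% a CACCT, so that a match is common, and no binding was measured here. The 7 genes also differed in their count of CG. The Tet2 window held 57 (99.8% of all windows held fewer), the Dnmt3b window 30 and the Dnmt3l window above 6, where the median of all windows was 7.

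The genes lie on 6 chromosomes (build GRCm38, annotation GENCODE M21). Dnmt1 (ENSMUSG00000004099) spans chr9:20907209-20959888 on the minus strand. Dnmt3a (ENSMUSG00000020661) spans chr12:3806007-3914443, Dnmt3b (ENSMUSG00000027478) chr2:153649450-153687730 and Dnmt3l (ENSMUSG00000000730) chr10:78041947-78063622, each on the plus strand. The Tet genes are on the minus strand, Tet1 (ENSMUSG00000047146) at chr10:62804570-62908996, Tet2 (ENSMUSG00000040943) at chr3:133463679-133545139 and Tet3 (ENSMUSG00000034832) at chr6:83362373-83459084.

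Levels are given as TPM, that is reads divided by the gene length that the authors used and scaled to the library. A log2 fold change is a difference on log2(TPM + 1) fitted with limma over all genes. Calls were made where the p adjusted by Benjamini-Hochberg was below 0.01. Reads recovered from the TPM numbered 9622622 to 15617675 in a library. The members rested on at least 27 reads in every library, the lowest in Dnmt3l of KO d0, and on up to 14399. Zeb2 itself was at 0.123 to 0.138 TPM at d0, 1.23 to 1.47 at d4 and 7.53 to 7.81 at d6 in Ctrl, and at 0.0171 to 0.0274, 0.126 to 0.204 and 0.594 to 0.733 in KO, so that each KO library lay below every Ctrl library of its day. Over all genes, the median of KO minus Ctrl on the log2 scale was -0.07 (d0), -0.16 (d4) and -0.14 (d6), and the median change was 0.26 from d0 to d4 in Ctrl, while rescaling by median ratios brought these medians to within 0.03 of 0. Rescaling also moved the share of the calls that were higher in KO at d4 from 28.0% to 49.6%, and at d6 from 34.3% to 49.9%. One library lay furthest from its group. KO d6 replicate 1 differed from its 2 group mates by a root mean square of 0.382 on the log2 scale, the largest of the 18. KO d6 replicate 3 was at 0.339, so the distance is a matter of degree. In KO d6 replicate 1, 6 of the 7 members were at their highest among the KO d6 libraries. Values at d6 are therefore also given without replicate 1 where they move.

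Dnmt1 mRNA was the most abundant of the 4 methyltransferases in Ctrl on every day, and it fell in KO. Ctrl libraries held 405, 410 and 430 TPM at d0, 455, 430 and 446 at d4, and 387, 420 and 416 at d6. KO libraries held 388, 409 and 375 TPM at d0, 340, 353 and 385 at d4, and 260, 257 and 249 at d6. The genotypes overlapped at d0 and were apart at d4 and d6. At d6 the Ctrl mean was 1.60-fold higher, with KO minus Ctrl at -0.67 ± 0.05 (SE, limma, adjusted p = 2.04e-08). Within KO, Dnmt1 fell between d4 and d6 (-0.49, adjusted p = 1.38e-06), where Ctrl moved by -0.12 (adjusted p = 0.0599), and the difference between these changes was called (-0.37 ± 0.08, adjusted p = 0.00212). The smaller difference at d4 (-0.30, limma adjusted p = 0.000163) was lost after median-ratio rescaling (-0.13, adjusted p = 0.0243), on the recovered reads (-0.13, adjusted p = 0.0206) and with chromosome medians removed (-0.12, adjusted p = 0.0435). The same 3 settings called a fall in KO from d0 to d4 (-0.29, -0.30 and -0.26), which was -0.12 without them (adjusted p = 0.0576), so whether the decline began before d4 depends on the scaling. Ordered by mean, the groups ran from Ctrl d4 (444 TPM) over Ctrl d0, Ctrl d6, KO d0 and KO d4 to KO d6 (255 TPM). Neighbours from Ctrl d0 to KO d4 in that order overlapped, and KO d6 lay below every other library.

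Dnmt3b showed the largest difference between the genotypes among the members. Ctrl stayed between 33.0 and 54.7 TPM in all 9 libraries, whereas the KO mean rose 13.4-fold from d0 to d6. Ctrl libraries held 46.1, 37.1 and 41.4 TPM at d0, 33.0, 42.5 and 46.4 at d4, and 51.6, 54.7 and 51.9 at d6. KO libraries held 32.9, 34.9 and 32.5 TPM at d0, 260, 413 and 363 at d4, and 484, 387 and 474 at d6. The lowest KO library at d4 thus held several times the TPM of the highest Ctrl library, while at d0 the KO libraries lay just below the Ctrl libraries (log2 fold change -0.30, adjusted p = 0.125). The log2 fold change at d4 was 3.05 (95% interval 2.73 to 3.36, limma adjusted p = 1.62e-10), an 8.51-fold ratio of mean TPM and the 8th highest of all 10965 genes. At d6 it was 3.06 (2.74 to 3.37, adjusted p = 5.37e-11). In Ctrl, the change from d0 to d4 was -0.04 (adjusted p = 0.818), in KO it was 3.30 (adjusted p = 1.76e-11), and the difference of 3.34 ± 0.21 was called (adjusted p = 7.56e-09). From d4 to d6 the difference in change was 0.01 (95% interval -0.43 to 0.46, adjusted p = 0.977). Dnmt3b lies next to Dnmt3c, a near copy that is not analysed here, so short reads from that gene may in part have been counted or lost with Dnmt3b.

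Dnmt3a, which with Dnmt3b methylates new sites, rose in both genotypes and further in KO. In Ctrl it went from 6.05, 6.48 and 7.73 TPM at d0 to 26.3, 25.7 and 26.7 at d4, and stayed at 26.3, 25.8 and 27.9 at d6. KO libraries started lower, at 4.72, 4.61 and 4.46 TPM, and reached 42.0, 46.6 and 50.3 at d4 and 63.0, 37.6 and 46.2 at d6. KO libraries did not overlap with Ctrl on any day, below them at d0 and above them at d4 and d6. KO exceeded Ctrl at d4 by 0.79 on the log2 scale (limma adjusted p = 0.000149). At d6 it did so by 0.82 (adjusted p = 7.35e-05), or by 0.63 without KO d6 replicate 1 (adjusted p = 0.000147). At d0 KO minus Ctrl was -0.46 and not called (adjusted p = 0.0133), but it was called with a pseudocount of 0.1 (-0.54, adjusted p = 0.00698) and with chromosome medians removed (-0.83, adjusted p = 0.00015). The difference in change between d0 and d4 was called (1.26 ± 0.19, adjusted p = 7.39e-05), and that between d4 and d6 was 0.03 (adjusted p = 0.939). The highest 2 groups, KO d6 and KO d4, overlapped, as did Ctrl d6 and Ctrl d4 after them. With chromosome medians removed, however, Dnmt3a was also called higher from d4 to d6, by 0.45 in Ctrl (adjusted p = 0.00868) and by 0.50 in KO (adjusted p = 0.00449). Dnmt3a has 18 annotated transcripts from several starts, and gene-level values cannot tell its long form from the short form known as Dnmt3a2.

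Dnmt3l, the stimulating partner, had the steepest course of the 7 genes. Ctrl held 4.63, 4.35 and 4.09 TPM at d0, 18.0, 19.1 and 26.4 at d4, and 65.2, 43.3 and 58.3 at d6. KO held 1.99, 1.90 and 2.12 TPM at d0, 61.1, 70.1 and 70.6 at d4, and 209, 155 and 153 at d6. KO libraries lay below Ctrl at d0 and above Ctrl at d4 and d6, without overlap. Dnmt3l was the sole member called at d0, with a log2 fold change of -0.83 ± 0.16 (limma adjusted p = 0.000537). That call rests on 27 to 36 reads in the KO libraries and 59 to 89 in Ctrl, and it was lost with a pseudocount of 5 (-0.42, adjusted p = 0.028) and on the recovered reads (-1.11, adjusted p = 0.0642). The log2 fold change turned to 1.64 at d4 (95% interval 1.30 to 1.97, adjusted p = 3.93e-07) and was 1.62 at d6 (1.29 to 1.95, adjusted p = 2.18e-07). From d0 to d4 the change was 2.03 in Ctrl and 4.51 in KO, a difference of 2.47 (adjusted p = 3.45e-07), and from d4 to d6 it was 1.35 and 1.33. KO d4 and Ctrl d6 overlapped and no other neighbours in the order of the 6 groups did. Dnmt3l shares 67 exon bases, 2.24% of its exon length, with Aire on the other strand, and whether reads were counted by strand is not given in the sources used here. Aire was at 0.988 to 1.64 TPM in Ctrl d0, 15.9 to 24.7 in Ctrl d4 and 13.2 to 21.7 in Ctrl d6. In KO it was at 0.082 to 0.727 TPM at d0, 9.41 to 15 at d4 and 14.7 to 61.8 at d6, so at d4 Aire was lower in KO while Dnmt3l was higher.

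**Figure D1:**
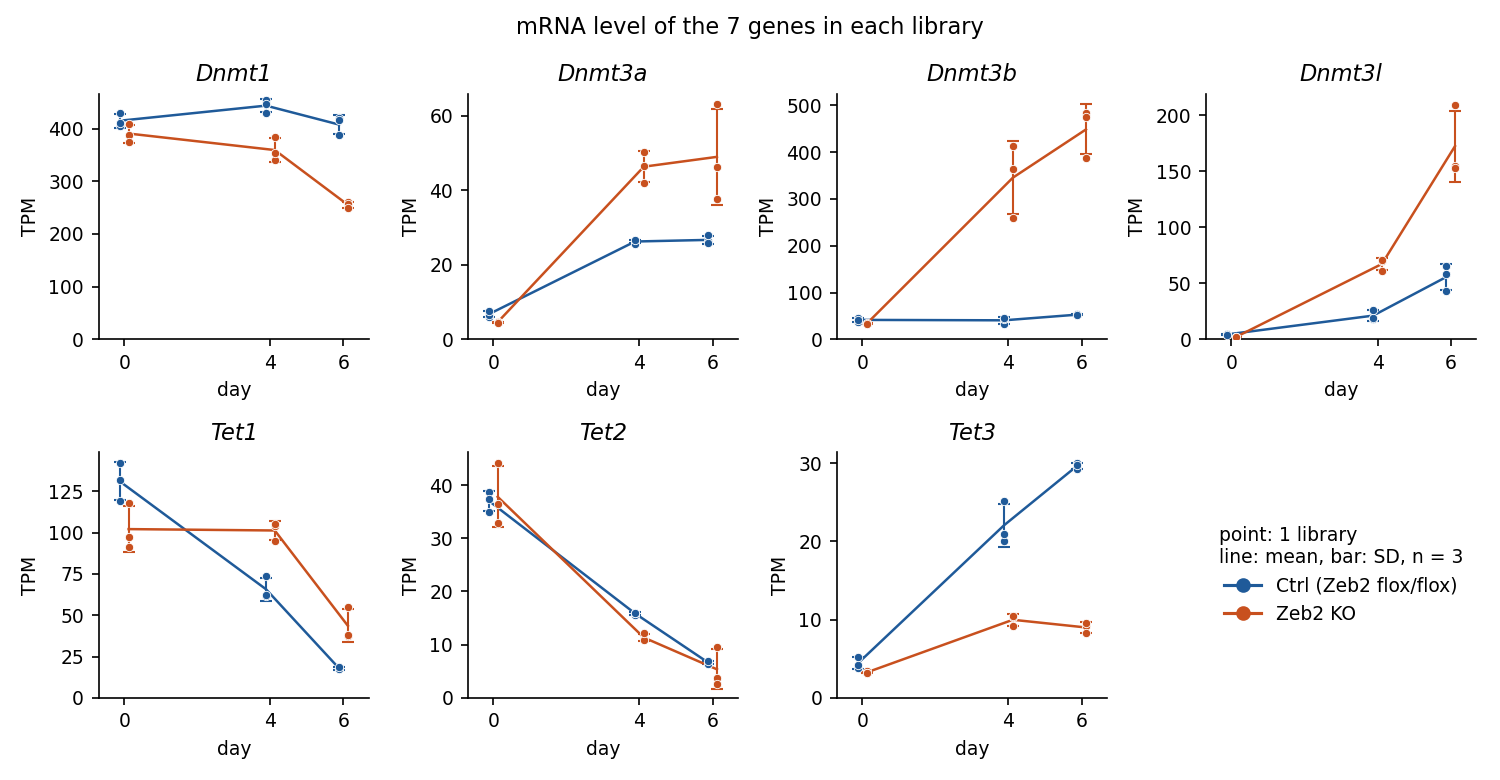
Level in TPM (vertical axis, from 0, with a scale of its own in each panel) of the 7 genes by day (horizontal axis) in Ctrl (blue) and Zeb2 KO (orange), with 1 point per library, lines through the group means and bars of 1 SD (n = 3). Dnmt3b stays below 55 TPM in Ctrl and lies at 260 TPM or more in every KO library at d4 and d6, while Tet3 stays at or below 10.5 TPM in KO and reaches 30 TPM in Ctrl.

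Tet1, the Tet gene known for its high level in ESCs, fell in both genotypes and later in KO. Ctrl libraries held 119, 132 and 142 TPM at d0, 73.7, 61.5 and 62.0 at d4, and 17.3, 17.5 and 18.7 at d6. KO libraries held 97.2, 118 and 91.2 TPM at d0, 104, 94.9 and 105 at d4, and 55.1, 37.6 and 38.2 at d6. In Ctrl the mean at d4 was 1.99-fold lower than at d0 (log2 change -0.99, adjusted p = 3.41e-06), while the KO libraries of d0 and d4 overlapped (log2 change -0.00, 95% interval -0.28 to 0.27). At d4 the KO libraries lay above Ctrl by 0.62 on the log2 scale (limma adjusted p = 0.000708), and at d6 by 1.22 (adjusted p = 5.55e-07). Without KO d6 replicate 1, which held the highest value, the latter was 1.05 (adjusted p = 7.58e-07). At d0 it was -0.36 and not called (adjusted p = 0.0356). The difference in change from d0 to d4 was 0.98 ± 0.18 (adjusted p = 0.000373), and that from d4 to d6 was 0.60 and not called (adjusted p = 0.0250). From d4 to d6 Tet1 fell in both genotypes, by 1.82 on the log2 scale in Ctrl and by 1.22 in KO.

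Tet2 fell in both genotypes, and with all libraries it was the member not called between them at d4 and d6. Ctrl held 38.7, 35.0 and 37.4 TPM at d0, 15.6, 16 and 16 at d4, and 6.65, 6.39 and 6.87 at d6. KO held 32.8, 44.1 and 36.5 TPM at d0, 11.0, 10.9 and 12.1 at d4, and 9.64, 3.77 and 2.68 at d6. The genotypes overlapped at d0, KO lay below Ctrl at d4, and at d6 KO d6 replicate 1 lay above all Ctrl libraries and its 2 group mates below them. With all libraries the log2 fold change was -0.45 at d4 (95% interval -0.99 to 0.08, adjusted p = 0.133) and -0.42 at d6 (-0.95 to 0.12, adjusted p = 0.162). Without KO d6 replicate 1 it was -0.86 at d6 and called (limma adjusted p = 2.44e-05), and the d4 difference was called when the 2 groups of d4 were fitted alone (adjusted p = 0.00439). The test over the whole course gave an adjusted p of 0.417, and 0.00102 without that library. With 1 library of the d6 groups left out, the d6 value ran from -0.86 to -0.10, depending on the library. Under the other settings it ran from -0.51 to -0.02. These data thus do not settle whether Tet2 differed at d6. Both genotypes fell between d0 and d4 (-1.17 in Ctrl, -1.65 in KO) and between d4 and d6 (-1.15 and -1.11), and all 4 steps were called. The last of them, d4 to d6 in KO, was not called when its 2 groups were fitted alone (adjusted p = 0.0408).

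Tet3, the Tet gene known from neurons and the oocyte, rose in Ctrl and rose less in KO. Ctrl held 3.85, 4.15 and 5.26 TPM at d0, 20.1, 20.9 and 25.2 at d4, and 29.2, 30 and 29.8 at d6. KO held 3.37, 3.20 and 3.17 TPM at d0, 10.3, 9.14 and 10.5 at d4, and 9.14, 8.29 and 9.56 at d6. KO libraries lay below Ctrl on every day without overlap. The log2 fold change was -0.34 at d0 and not called (adjusted p = 0.0229), -1.07 at d4 (limma adjusted p = 1.04e-06) and -1.62 at d6 (95% interval -1.86 to -1.38, adjusted p = 4.04e-09), where Ctrl was 3.30-fold higher. KO did rise from d0 to d4 (1.37, adjusted p = 1.87e-08), less than Ctrl (2.09), and the difference of -0.72 was called (adjusted p = 0.00137), though not with chromosome medians removed (-0.36, adjusted p = 0.0770). From d4 to d6 KO changed by -0.13 (adjusted p = 0.333) and Ctrl by 0.42 (adjusted p = 0.00459). The Ctrl step was lost when any Ctrl library of d4 or d6 other than Ctrl d4 replicate 3 was left out (0.36 to 0.43, adjusted p = 0.0127 to 0.0269). KO d4 and KO d6 were neighbours in the order of the groups and overlapped.

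Read together, the KO against Ctrl comparison called 1 of the 7 members at d0 (lower in KO, as were 16.4% of all genes), where 27.0% of all genes were called, 6 of 7 at d4, where 45.5% were, and 6 of 7 at d6, where 52.3% were. At d4 and d6 Dnmt3a, Dnmt3b, Dnmt3l and Tet1 were higher in KO, where 12.7% and 17.9% of all genes were called higher, and Dnmt1 and Tet3 were lower, as were 32.7% and 34.3% of all genes. The libraries of the genotypes did not overlap for all 7 members at d4 (65.7% of all genes) and for 6, without Tet2, at d6 (63.7%). At d0, 5 members (Dnmt3a, Dnmt3b, Dnmt3l, Tet1 and Tet3) lay below Ctrl in every KO library, a position that 31.5% of all genes had. Within Ctrl, 5 members were called from d0 to d4 (67.4% of all genes), 4 from d4 to d6 (44.1%) and 5 from d0 to d6 (71.5%). Within KO, 5 were called from d0 to d4 (56.7%), 4 from d4 to d6 (41.4%) and all 7 from d0 to d6 (67.7%). In the difference between the genotypes, 5 members were called in the change from d0 to d4 (36.1% of all genes), 1 in the change from d4 to d6 (13.4%) and 6 over the whole course (48.7%). The member called in the change from d4 to d6 was Dnmt1, and its 1 of 7 is close to the share of all genes. In that change Tet3 differed by -0.55 (adjusted p = 0.0186) and Tet1 by 0.60 (adjusted p = 0.025), and each was called under other settings, among them quantile normalization (-0.71 and 0.91) and voom (-0.59 and 0.63).

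**Figure D2:**
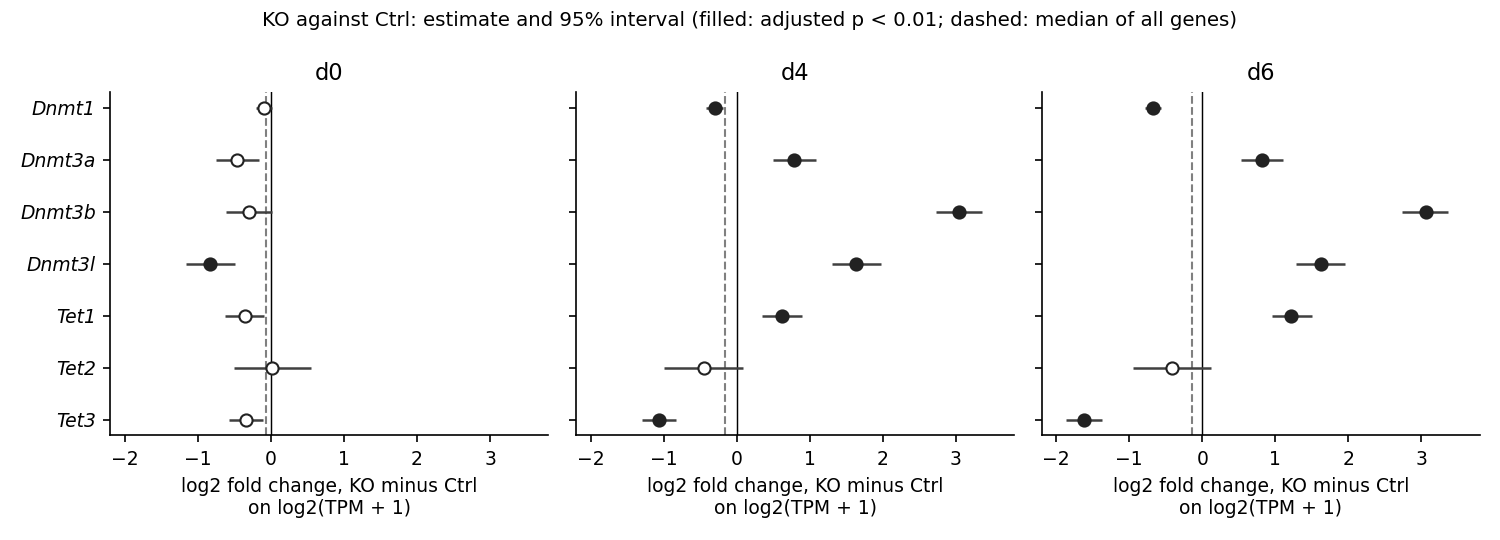
Log2 fold change on log2(TPM + 1), KO minus Ctrl (horizontal axis), of each member (vertical axis) at d0, d4 and d6 with 95% intervals, filled where the adjusted p is below 0.01, and the median of all 10965 genes as a dashed line. Dnmt3b lies at 3.05 and 3.06 at d4 and d6, Tet3 at -1.07 and -1.62, and the interval of Tet2 spans 0 on all 3 days.

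The make-up of both families differed between the genotypes, and for the Dnmt3 genes the sum did as well. Summed over Tet1, Tet2 and Tet3, Ctrl held 173 ± 11.9, 104 ± 5.53 and 54.1 ± 1.12 TPM at d0, d4 and d6 (SD, n = 3), and KO held 143 ± 19.2, 123 ± 6.84 and 58.0 ± 13.8. At d6 these sums were close, at 53.1 to 55.4 TPM in the Ctrl libraries and 49.7 to 73.9 in KO. Without KO d6 replicate 1, which held the highest sum, the KO mean was 50.1 TPM, below every Ctrl library. Tet3, however, made up 54.8% ± 0.889 of the d6 sum in Ctrl and 16% ± 3.34 in KO, and Tet1 32.9% ± 0.683 in Ctrl and 75.4% ± 0.659 in KO. The ratio of Tet1 to Tet3 TPM fell in Ctrl from 29.9 at d0 over 3.03 at d4 to 0.600 at d6, and in KO from 31.5 over 10.2 to 4.86. Summed over Dnmt3a, Dnmt3b and Dnmt3l, Ctrl held 52.6 ± 4.46, 88.1 ± 11.1 and 135 ± 10.0 TPM, and KO 40.0 ± 1.23, 459 ± 86.5 and 670 ± 88.7. The share of Dnmt3b in this sum fell in Ctrl from 78.8% over 46% to 39.3%, whereas in KO it was 83.5%, 74.9% and 67.1%. Dnmt3l rose from 8.31% to 40.9% of the sum in Ctrl. The Dnmt3 sum was 0.127, 0.199 and 0.332 of the Dnmt1 level in Ctrl, and 0.103, 1.27 and 2.62 of it in KO. From d4 on, the summed Dnmt3 TPM thus exceeded the TPM of Dnmt1 in KO and lay below it in Ctrl. TPM divides reads by a gene length used by the authors, which is not given here and did not follow the annotated exon bases. In Ctrl d6 replicate 1, Tet1 had 1350 reads and 17.3 TPM, and Tet3 had 1465 reads and 29.2 TPM. Their annotated exons span 15457 and 16695 bases. Sums, shares and ratios across genes thus depend on that length.

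**Figure D3:**
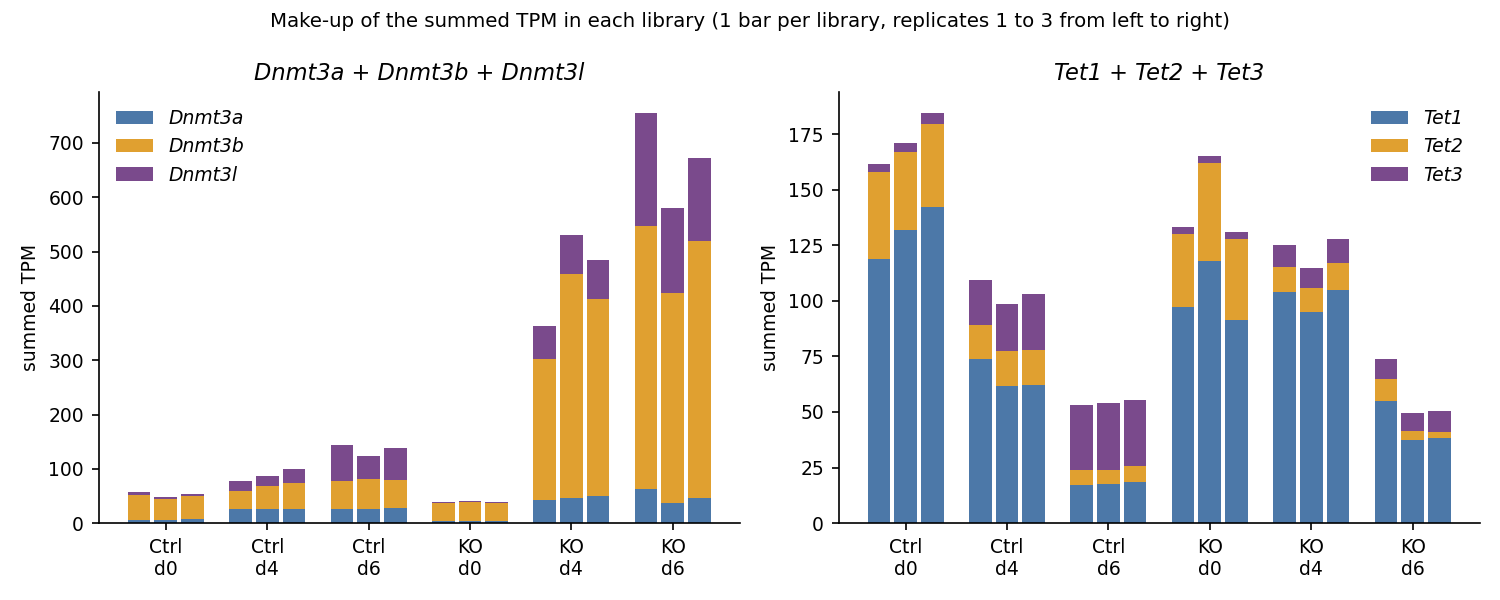
Summed TPM of the Dnmt3 genes (left) and of the Tet genes (right), with 1 bar per library and colours for the genes. At d6 the Tet bars hold mostly Tet3 in Ctrl (54.8%) and mostly Tet1 in KO (75.4%), and the Dnmt3 bars of KO reach 579 to 756 TPM against 124 to 143 TPM in Ctrl.

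Position on the chromosomes was looked at because whole stretches of chromosomes can differ between ESC lines. At d0 the genes within 10 Mb of each member had a median log2 fold change, KO minus Ctrl, between -0.17 and 0.13, and each called or non-overlapping member lay below its own neighbours. Dnmt3a is on chromosome 12, whose median at d0 was 0.36, but the 36 genes within 10 Mb of it were at -0.12. Tet3 is on chromosome 6, where the 104 genes near it were at 0.13. At d4 and d6 the medians around the 7 genes ranged from -0.25 to -0.01, and the differences of Dnmt3b from its neighbours were 3.13 and 3.14. Tet1 and Dnmt3l lie on the same chromosome, 10, and moved against their neighbours by 1.43 and 1.76 at d6.

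The other genes of the pathway were taken from 4 lists. Of the 14 genes of maintenance and Dnmt partners, 12 were measured, and Setdb1 and Kdm1b were not in the table. At d4, 3 were higher in KO (Usp7, Hells and Cdca7) and 3 lower (Ehmt2, Uhrf2 and Dppa3), with a median of -0.03 against -0.16 over all genes. Uhrf1, which brings Dnmt1 to newly replicated DNA, was at 230 to 235 TPM in Ctrl d6 and 208 to 228 in KO d6 (log2 fold change -0.11, limma adjusted p = 0.0828), and Pcna, the replication clamp that Dnmt1 binds, at 96.9 to 108 and 96.8 to 108. From d4 to d6 Uhrf1 fell in KO (-0.23, limma adjusted p = 0.0017), where Ctrl moved by 0.05. The difference between these changes was -0.28 and not called (adjusted p = 0.0129), while the test over the whole course called Uhrf1 (adjusted p = 0.00534). Uhrf2 was lower in KO d6, at 20.7 to 24.0 TPM against 42.8 to 44.4 in Ctrl (-0.92, limma adjusted p = 3.19e-08). Hells, a remodeller needed for methylation, was higher in KO d6 (0.58, adjusted p = 4.30e-06). Dppa3, known to limit Uhrf1, was lower in KO at d0 (-1.01, adjusted p = 6.09e-05) and d4 (-1.40, adjusted p = 1.10e-06) and higher at d6 (0.58, adjusted p = 0.00275). At d6 the list had 4 genes higher and 3 lower, and 3 and 3 without KO d6 replicate 1. With median-ratio rescaling its median at d4 was 0.15, with 5 genes higher and 2 lower.

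Of the 8 readers of methylated DNA, 5 were measured, and 4 were lower in KO at d4 and at d6 with none higher, where 32.7% and 34.3% of all genes were lower. Mbd2, which binds methylated CG and recruits a repressor complex, was at 41.1 to 47.7 TPM in Ctrl d6 and 17.9 to 25.7 in KO d6 (-0.94, limma adjusted p = 6.15e-06). Mbd1 was also lower at d0 (-0.55, limma adjusted p = 0.00463), and at d4 and d6 by -0.99 and -0.98 on the log2 scale. Its call at d0 was lost with quantile normalization and with chromosome medians removed, where no reader was called. At d6 the median of the 5 was -0.94, against -0.14 over all genes. After median-ratio rescaling 3 were called at d4 and 4 at d6, each lower. In Ctrl all 5 rose from d0 to d4, as did 45.1% of all genes, and in KO 1 did (Zbtb33), where 35.8% of all genes rose. The rise in Ctrl was 0.80 for Mbd1 but 0.26 for Mbd3, the same as the median of all genes (0.26). Calls in this step were not counted after rescaling. The difference between the genotypes in the change from d0 to d4 was called for 2 of the 5, Mbd2 among them.

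Removal of oxidised cytosine was covered by 9 measured genes of 12, and Tdg, the glycosylase that follows the Tet enzymes, was not in the table. The list includes the Gadd45 genes, stress genes proposed to aid demethylation. Gadd45a was at 11.0 to 11.4 TPM in Ctrl d0 and 2.40 to 2.93 in KO d0, at 31.7 to 37.0 and 5.10 to 8.56 at d4, and at 30.2 to 40.8 and 20.9 to 24.9 at d6, and it was called lower on all 3 days. Gadd45g was likewise lower on all 3 days, and Gadd45b was lower at d4 (-0.62) and higher at d6 (0.61). Smug1, a glycosylase, was lower at d6 (limma adjusted p = 2.81e-07) and Neil2, another, higher (1.01, adjusted p = 0.000713). Of the 8 genes for cofactors and Tet partners, 6 were measured, and 2 were called higher and 1 lower at d4 and 1 higher and 2 lower at d6. After median-ratio rescaling, 1 of the removal genes was higher and 3 lower at d4, and 3 higher and 2 lower at d6, while the cofactor genes had 2 higher and none lower at d4. Idh1, an enzyme that makes the alpha-ketoglutarate that the Tet enzymes use, was lower at d6 (-0.38) and Mat2b, a subunit of the enzyme that makes the methyl donor, higher (0.45).

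**Figure D4:**
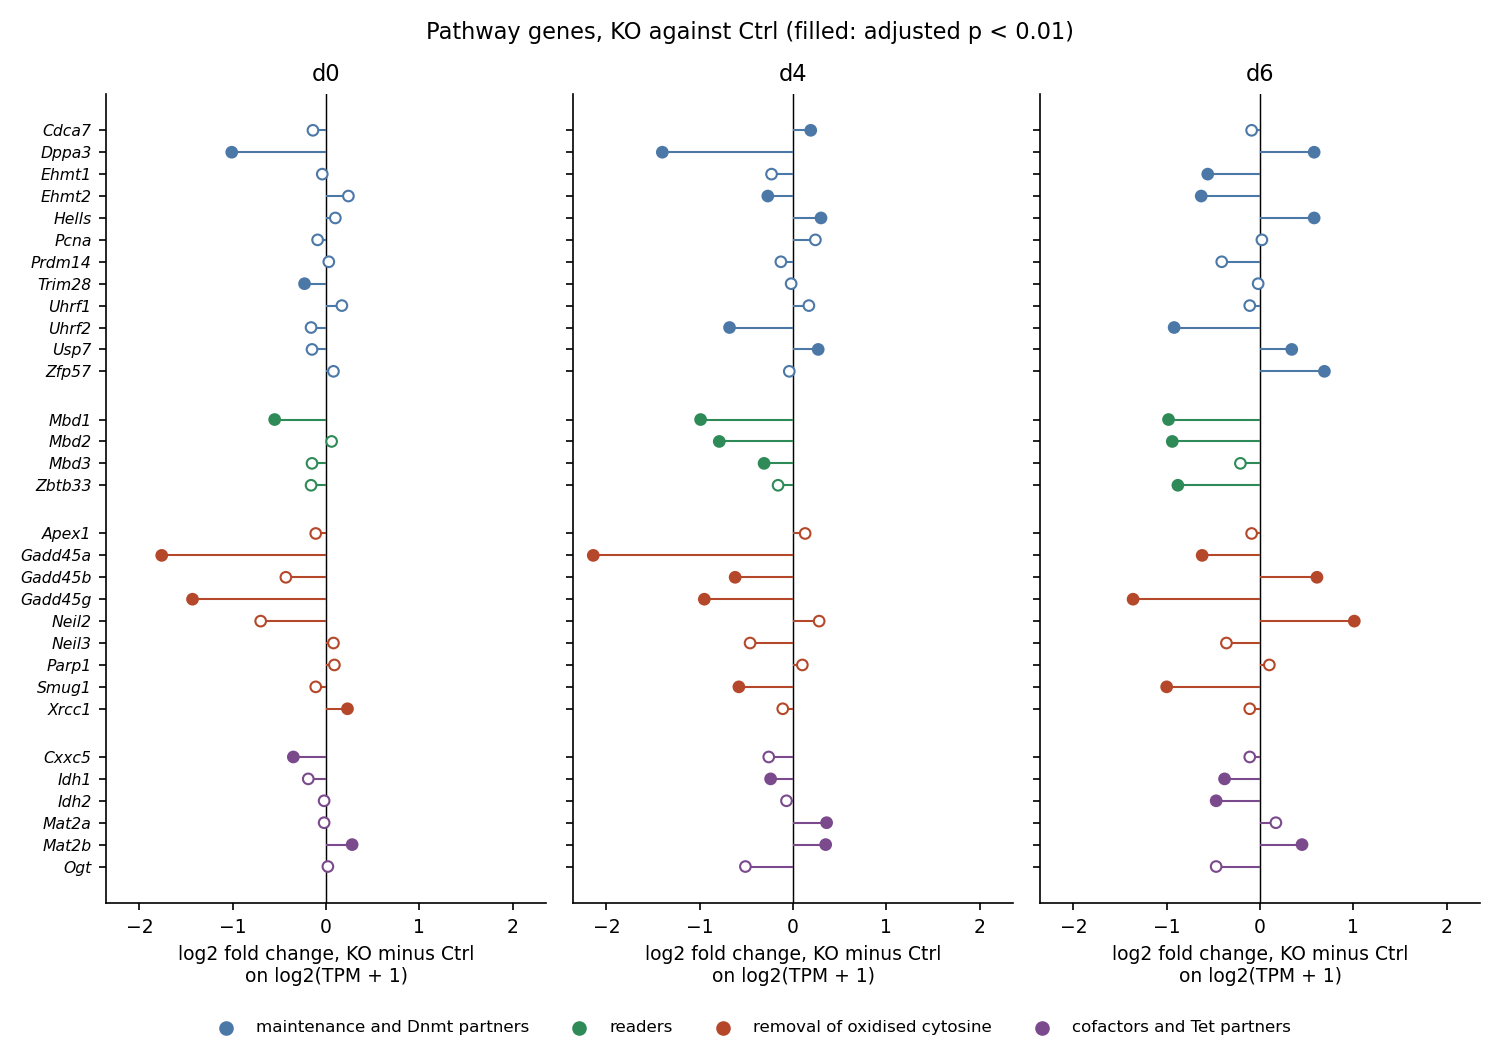
Log2 fold change on log2(TPM + 1), KO minus Ctrl (horizontal axis), of measured genes of the 4 pathway lists (vertical axis, 1 colour per list) at d0, d4 and d6, filled where the adjusted p is below 0.01. The readers shown in green lie at or below -0.16 at d4 and d6, while the maintenance genes in blue lie on both sides of 0.

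Marker genes of other states moved along with the members. In a bulk sample, fewer cells of a type and less RNA in each cell cannot be told apart. Of 6 markers of the primed epiblast, 4 were higher in KO at d4 and 5 at d6, with 1 lower on each day (Sox4). Their summed TPM was 273 to 312 in KO d4 against 183 to 213 in Ctrl d4, and 574 to 640 against 182 to 209 at d6. Sox4 was the largest part of the Ctrl sums, at a mean of 120 TPM in Ctrl d4 and 108 in Ctrl d6, against 56.5 and 44.2 in KO. Of 8 pluripotency markers 4 were higher at d4 (0 lower) and 6 higher at d6 (1 lower), with sums of 3417 to 3676 TPM in KO d6 and 988 to 1140 in Ctrl d6. Of 8 neural progenitor markers 5 were lower and 1 higher at d4 and all 8 lower at d6 (103 to 119 TPM against 634 to 679). Over all genes, 12.7% and 17.9% were called higher in KO at d4 and d6, and 32.7% and 34.3% lower. Marker counts were not repeated under the other settings, and the share of calls that were higher depends on the scaling. Of the markers of other cells, 6 measured endoderm genes summed to 24.6 to 41.4 TPM in KO d6 and 137 to 235 in Ctrl d6, and 3 measured mesoderm genes to 9.54 to 14.5 and 138 to 189. Of these mesoderm genes, Meox1 and Pdgfra were lower in KO d6 and Eomes was higher (log2 fold change 1.86). Meox1 alone had a mean of 153 TPM in Ctrl d6, so the mesoderm sum mostly follows that gene. The 4 measured trophectoderm genes summed to 62.7 to 113 TPM in KO d6 and 205 to 273 in Ctrl d6. Genes used as markers of fibroblast feeders (4 measured) summed to 93.2 to 211 TPM in KO d6 and 64.7 to 117 in Ctrl d6, with 2 higher and 2 lower, and at d0 to 1.52 to 2.96 and 6.18 to 8.71. The 4 germ cell markers summed to 82.8 to 109 TPM in KO d6 and 124 to 135 in Ctrl d6, with 1 higher (Ddx4) and 2 lower (Dazl and Prdm1). The defining endoderm genes Sox17 and Hnf4a, the mesoderm genes T, Mixl1, Kdr, Tbx6 and Mesp1, and the trophectoderm genes Cdx2 and Elf5 were not in the table. What part these shifts in markers have in the levels of the Dnmt and Tet genes was not tested.

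Across the 18 libraries the genes most like each member were found by Pearson's r on log2(TPM + 1) among 9695 genes, as a description in which the points share groups and days. Dnmt3b was followed most closely by Enpp2 (r = 0.993), and among the 3 closest was the epiblast factor Otx2 (0.979), whose mean rose from 1.86 TPM in KO d0 to 161 in KO d6 and from 3.96 to 9.14 in Ctrl. Dnmt3l went with Kif1a (0.993), Fam57b (0.988) and Galnt3 (0.985), and Dnmt3a with Strbp (0.989), Myrf (0.985) and Orc3 (0.981). For Tet1 they were Alg13 (0.989), Rest (0.987), a repressor of neuronal genes, and Mybl2 (0.978). For Tet3 they were Zswim6, Cand2 and the growth factor gene Mdk (each 0.992), and Mdk was at a mean of 3665 TPM in Ctrl d6 and 781 in KO d6. Tet2 went with Brca1, Usp48 and Gabpa (each 0.976), and Dnmt1 with Tcf19 (0.975), Txlna (0.970) and Usp4 (0.968). Among the members, Dnmt3a and Dnmt3l were the closest pair (r = 0.96), Dnmt3b and Tet3 were near 0 (0.04), and Dnmt3l and Tet2 were the most opposed (-0.92).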

How the data were processed

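Single reads were aligned by the authors with TopHat2 2.0.13 and counted per gene with featureCounts 1.4.6, per the labels and methods, on GRCm38. The deposited values are TPM made by the authors from these counts. The authors left out short noncoding, low and least variable genes, so that absence from the table does not show absence of expression. The table held 11046 entries. The first of each of 72 repeated genes was kept, which left 10965 genes. Its 3 deposited score columns (variance, standard deviation and variability by their names) were not used.

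Whole reads were recovered for all 10965 genes from the steps of the TPM values. The values fit whole reads once 1 is taken off per gene, and this was done. Depth per library was 9622622 to 15617675 reads on these genes.

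log2(TPM + 1) was fitted with limma 3.58.1 in R 4.3.3 (eBayes with trend) with 1 mean for each of the 6 groups, and p-values were adjusted over all 10965 genes in 12 comparisons, including the moderated F test of the course. limma was tested on simulated data. Positions came from GENCODE M21 for 10922 genes. Python 3.11.15 with pandas 2.3.3, numpy 2.4.6, scipy 1.17.1 and matplotlib 3.10.9 served for the rest. The members, the lists and the rule for the genes named (members, Zeb2, called list genes and the 3 genes most like each member among those whose highest group mean was at least 10 TPM) were chosen with earlier results of these data known. Of the list genes, those singled out with values were picked after these were seen. Alternatives were pseudocounts of 0.1 and 5, a minimum mean of 10 TPM, median-ratio and quantile scaling, eBayes without trend, only the groups compared, a replicate block, voom on recovered reads, chromosome medians removed, and leaving out each library. Single values of 1 list gene and of 1 gene most like a member are not reported here. Protein sequences and methylation data were not analysed here.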

Additional observations from a re-analysis of the deposited data

Results flagged for a closer look

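The results below are listed because the change over time differed between Ctrl and Zeb2 KO by a test of the difference itself (limma on log2(TPM + 1), Benjamini-Hochberg adjusted p below 0.01 over 10965 genes, 3 libraries a group). Such calls were common. They covered 36.1% of all genes in the change from d0 to d4, 13.4% in that from d4 to d6 and 48.7% over the whole course. Between d0 and d4 the change in KO exceeded that in Ctrl by 3.34 for Dnmt3b (adjusted p = 7.56e-09), 2.47 for Dnmt3l (adjusted p = 3.45e-07), 1.26 for Dnmt3a (adjusted p = 7.39e-05) and 0.98 for Tet1 (adjusted p = 0.000373), and it was lower by -0.72 for Tet3 (adjusted p = 0.00137). Between d4 and d6 it was lower for Dnmt1 (-0.37, adjusted p = 0.00212). Over the whole course, with the difference from d0 to d6 as its size, the test called Dnmt3b (3.36, adjusted p = 1.93e-09), Dnmt3l (2.45, adjusted p = 1.25e-07), Tet1 (1.59, adjusted p = 7.42e-06), Dnmt3a (1.29, adjusted p = 3.39e-05), Tet3 (-1.28, adjusted p = 1.72e-05) and Dnmt1 (-0.58, adjusted p = 2.42e-05). Groups of 3 are too small to test for outlying libraries, and KO d6 replicate 1 was singled out only by its distance to its group mates.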

How the results depend on the processing

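Over the 12 comparisons, 801 of 833 values of single members under another setting kept their direction, or stayed uncalled, on the same side of the threshold, 23 became called, 7 lost the call and 2 reversed. With 1 library left out, 662 of 672 did so. Both reversals concern Dnmt1 in Ctrl from d0 to d4, which was 0.10 and not called, and -0.20 and called after median-ratio rescaling (adjusted p = 0.000808) and with voom on the recovered reads (adjusted p = 0.000412). With quantile normalization it was 0.21 and called higher (adjusted p = 0.00319), so its direction depends on the scaling, and the cause was not tested. The number of members called at d0 was 1 (27.0% of all genes), and 2 with a pseudocount of 0.1 (27.5%). It was 0 with a pseudocount of 5 (25.7%) and with voom (26.9%), and 3 with chromosome medians removed (21.3%). Where none was called, the adjusted p of Dnmt3l by limma was 0.028 (pseudocount 5) and 0.0642 (voom). The number called in the change from d4 to d6 was 1 (13.4% of all genes), and 2 with a pseudocount of 5 (15.6%) and without the trend (13.1%). It was 3 with quantile normalization (16.8%) and with voom (14.6%). With 1 library left out it was 1 to 2 (10.4% to 13.6% of all genes), and 2 without Ctrl d4 replicate 3, where Tet3 joined. The replicate block left every count of members called unchanged (1, 6 and 6 at d0, d4 and d6, where 25.4%, 44.3% and 51.3% of all genes were called). Samples with the same number shared deviations with correlations of -0.077 to 0.231, not above 0.1 in every pair, and 7 of 9 KO samples and 7 of 9 Ctrl samples correlated best with their own number, a hint from the data and not from the design. With only the groups compared in the fit, 2801 genes rather than 4540 were called from d4 to d6 in KO, with 3 members rather than 4. List counts under other settings were added after seeing the data. Depth limits Dnmt3l at d0, with 27 to 89 reads a library.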
